A study of Mus musculus with 2 samples.

Results

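Esrrb, Nr5a2, Nr0b1, Tfcp2l1 and Tbx3 are 5 transcription regulators of naïve pluripotency, and they are described here by name, as 5 of the 32286 features counted in both libraries. All 5 symbols were found once in each library. The data were droplet-based single-cell RNA sequencing (scRNA-seq) of mouse cells of strain ICR. There were 2 libraries, 1 of embryonic stem cells (ESCs) grown in serum/LIF medium on feeder cells (0 h) and 1 of epiblast-like cells after 48 h in N2B27 medium with activin A, bFGF and KSR (48h-EpiLCs). Each library mixed, in equal numbers, wild-type (WT) cells that carry the ROSA mT/mG reporter and transcribe tdTomato with Cnot8 knockout (KO) cells. Cnot8 is a catalytic subunit of Ccr4-Not, the main machinery that removes poly(A) tails from mRNA. The KO ESCs were derived from blastocysts of heterozygous parents of a CRISPR mutant mouse line and propagated from a picked single colony, and the WT cells are another line, so genotype and line (with its sex chromosomes) cannot be told apart, nor can stage and library. The genotype label of both libraries names the wild type alone, and the submitters' note points to tdTomato for telling the cells apart.

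A cell was placed in the WT class with at least 1 tdTomato UMI and 0 UMIs of the Y-linked genes Ddx3y, Eif2s3y, Kdm5d and Uty, and in the KO class with 0 tdTomato UMIs and at least 2 UMIs of those genes. Of 11054 ESCs kept, 435 fell in the WT class and 2978 in the KO class. Of 9400 EpiLCs kept, 368 and 2977 did. The other 7641 and 6055 cells met neither rule, with too few of these UMIs or with both marks. Median depth ranged from 13150 UMIs per cell in WT ESCs to 17630 in KO EpiLCs, and the summed UMIs ranged from 6154790 to 59291903 per class. A tdTomato UMI and at least 2 Y-linked UMIs were found together in 35 cells of each library, which was 1.16% of the cells with at least 2 Y-linked UMIs. The libraries shared 41 barcodes. Cnot8 itself was at 43.1 CPM (UMIs per 1000000 UMIs of the class) in WT ESCs and 72.1 in KO ESCs, and at 49.7 and 62.6 in the EpiLC classes. A count of 3′ ends does not show an edit in an early exon, so Cnot8 gives no check of the classes. The pluripotent markers Pou5f1, Sox2, Tdgf1 and Dppa5a were detected in all 4 classes, at a summed 2486 to 4256 CPM. With 1 library per stage there is no replicate, so no test was run. All intervals are 95% and cover counting error only.

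As background, naïve pluripotency is held by a network of transcription factors downstream of LIF and Wnt signalling, and several of its members are interchangeable in part. Esrrb and Nr5a2 are orphan nuclear receptors that bind closely related DNA elements, and Nr0b1 (also called Dax1) is an atypical nuclear receptor without a classical DNA-binding domain. Tfcp2l1 is a grainyhead-related factor induced through Stat3, and Tbx3 is a T-box factor that also acts in extraembryonic endoderm. The network is dismantled when cells move towards the formative state, in which Otx2, Pou3f1 and Fgf5 are induced.

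On GRCm38 with the GENCODE M21 annotation, Esrrb lies at chr12:86361117-86521628 and Tfcp2l1 at chr1:118627945-118685168, both on the plus strand. Nr5a2 lies at chr1:136842571-136960448 on the minus strand. Nr0b1, at chrX:86191764-86195947, is the one X-linked gene among them, and Tbx3 lies at chr5:119670669-119684724, both on the plus strand. Tbx3 overlaps the antisense gene Tbx3os1. Whether counting used strand is not given in the sources used here, so reads of that pair may not be separable.

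Promoter windows from RefSeq (GRCm38.p6), from 250 bases before to 50 after a start site, were listed for Esrrb, Nr5a2, Nr0b1 and Tfcp2l1, 6 windows in all. They were searched on both strands for motifs of factors of this network. No window was listed for Tbx3. The lines below show 1 match per gene, 5′ to 3′ on the strand of the gene, with the motif in capitals.
Esrrb, Stat-type element TTCNNNGAA, chr12:86360929-86360957: aacggaaactTTCGTGGAAagcacttgag
Nr0b1, Tcf/Lef core CTTTGA, chrX:86191626-86191651: gtgtttgcccCTTTGAgctttcgagg
Tfcp2l1, Klf-type box GGGNGTGG (here on the opposite strand), chr1:118627874-118627901: cctgcaataaCCACGCCCctaatgccac
Nr5a2, Klf-type box GGGNGTGG, chr1:136953770-136953797: ctccgggtgaGGGCGTGGagcccaggaa
The Stat-type element was found in 8.30% of all 32851 promoter windows, the Tcf/Lef core in 16.0% and the Klf-type box in 17.6%, so each is common. The Esrrb motif TCAAGGTCA (0.423% of windows), the Nr5a2 motif CAAGGNCA (6.71%), the octamer ATGCAAAT of Pou5f1 (1.74%) and the T-box element AGGTGTGA (1.28%) were in none of the 6 windows.

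Since Cnot8 acts on poly(A) tails, the longest annotated 3′ UTR of each gene was searched for TGTANATA, the element of the Pumilio proteins, which are known to recruit Ccr4-Not to mRNAs. Tbx3 held 3 matches in 1632 bases and Esrrb held 1 in 2563 bases. Tfcp2l1 held 1 in 7734 bases, and none was found in Nr5a2 (2892 bases) or Nr0b1 (352 bases). Of 21105 genes, 23.1% held a match, a share not matched for UTR length. Per kilobase of UTR there were 0.232 matches over all genes, 1.84 in Tbx3, 0.39 in Esrrb and 0.129 in Tfcp2l1. The matches are shown with 10 flanking bases and the element in capitals.
Tbx3, chr5:119684027-119684054: tgatatctctTGTAAATAggtggaatat
Tbx3, chr5:119684080-119684107: tttattgaatTGTACATAgctggatgta
Tbx3, chr5:119684094-119684121: catagctggaTGTAAATAggagcgtgtc
Esrrb, chr12:86521465-86521492: tgacttaagaTGTATATAttttttaacc
Tfcp2l1, chr1:118680271-118680298: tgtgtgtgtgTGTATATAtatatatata
The Tfcp2l1 match lies in a run of TG and TA repeats. The AU-rich core ATTTA was in all 5 UTRs, from 1 copy in Esrrb to 7 in Tfcp2l1, and in 65.0% of genes, which differ in UTR length. Per kilobase the core occurred 1.93 times over all genes, 5.68 times in Nr0b1 (2 copies) and 0.39 to 1.38 times in the others. The AU-rich nonamer TTATTTATT was in none of the 5, against 7.59% of genes. A match here is a string of letters and not a measured site.

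All 5 factors were far lower in EpiLCs than in ESCs in both line classes. In the KO class each kept a larger part of its ESC level in value, though for Nr5a2 not beyond counting error. Esrrb was at 48.7 CPM (95% interval 43.4 to 54.6; 300 UMIs) in WT ESCs, 56.6 (54.4 to 58.9; 2496 UMIs) in KO ESCs, 3.54 (2.22 to 5.36; 22 UMIs) in WT EpiLCs and 11.3 (10.5 to 12.2; 672 UMIs) in KO EpiLCs. The order of the 4 classes was thus KO ESC, WT ESC, KO EpiLC, WT EpiLC, and the intervals of the ESC classes overlapped while those of the EpiLC classes did not. Esrrb was 13.8-fold lower in EpiLCs than ESCs in the WT class and 4.99-fold lower in the KO class.

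Nr5a2, which in EpiLCs was counted only rarely, stood at 15.1 CPM (12.2 to 18.5; 93 UMIs) in WT ESCs and 22.4 (21.1 to 23.9; 989 UMIs) in KO ESCs. It was at 1.13 CPM (0.453 to 2.32; 7 UMIs) in WT EpiLCs and 2.82 (2.41 to 3.28; 167 UMIs) in KO EpiLCs. The class order was that of Esrrb. The stage difference was 13.4-fold in the WT class and 7.96-fold in the KO class.

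Nr0b1, a partner and target of the core factors in ESCs, was the exception in ESCs. Its level was 121.5 CPM (113.0 to 130.6; 748 UMIs) in WT ESCs and 92.6 (89.8 to 95.5; 4084 UMIs) in KO ESCs. In EpiLCs it was at 15.8 CPM (12.8 to 19.2; 98 UMIs) in the WT class and 22.2 (21 to 23.4; 1315 UMIs) in the KO class. The KO class was therefore below WT in ESCs and above it in EpiLCs, with no overlap of the intervals at either stage. The stage difference was 7.71-fold in the WT class, the smallest of the 5, and 4.18-fold in the KO class.

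Tfcp2l1 was at 35.1 CPM (30.6 to 40.1; 216 UMIs) in WT ESCs, 43.5 (41.6 to 45.5; 1920 UMIs) in KO ESCs, 1.93 (0.997 to 3.37; 12 UMIs) in WT EpiLCs and 7.24 (6.57 to 7.95; 429 UMIs) in KO EpiLCs. Its intervals did not overlap between any of the 4 classes. It was 18.2-fold lower in EpiLCs in the WT class and 6.02-fold lower in the KO class.

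Tbx3 showed the deepest stage difference of the 5 in value. It was at 36.4 CPM (31.8 to 41.5; 224 UMIs) in WT ESCs and 42.0 (40.1 to 44.0; 1854 UMIs) in KO ESCs. In EpiLCs it was at 0.482 CPM (0.0995 to 1.41; 3 UMIs) in the WT class and 2.34 (1.97 to 2.77; 139 UMIs) in the KO class. With 3 UMIs the WT change of -6.24 on the log2 scale carried an interval of -8.53 to -4.67, and the KO change was -4.16 (-4.42 to -3.92). In the KO class this interval lay below those of the other 4 factors, while in the WT class it overlapped those of Nr5a2 and Tfcp2l1. Over the 5 genes the median log2 change between stages was -3.79 in the WT class and -2.59 in the KO class. On log2(CPM + 1) it was -3.455 and -2.435, while the median over all genes of at least 5 mean CPM was 0.03 and -0.02 on that scale. All 5 genes were at least 2-fold lower in EpiLCs in both classes, on log2(CPM + 1), against 4.65% of 9242 genes in the WT class and 4.03% of 9478 in the KO class.

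**Figure D1:**
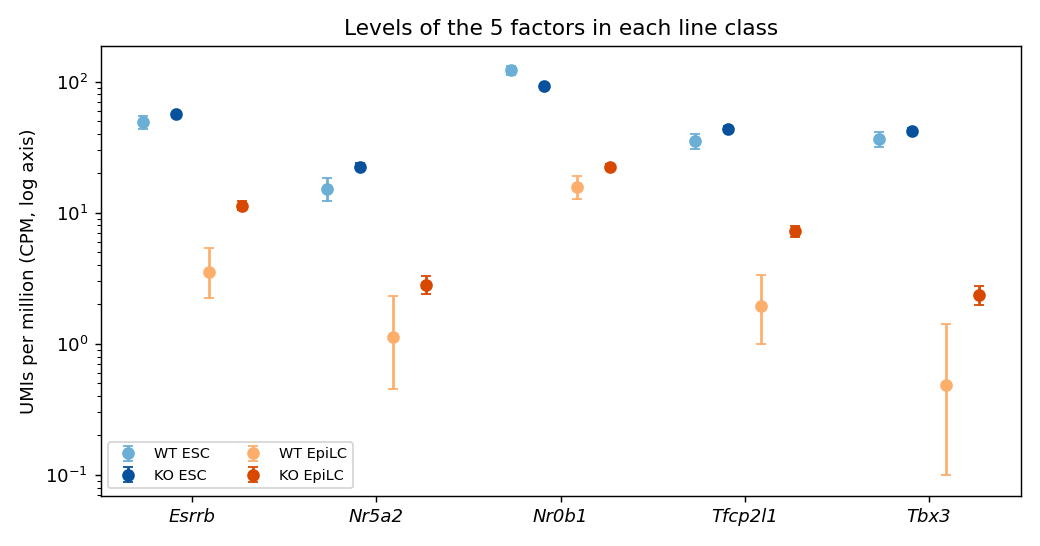
Level of each factor in CPM (log axis) in the 4 classes, with points at the class value and bars for the exact Poisson 95% interval (counting error only). For each factor both EpiLC points (orange) lie below both ESC points (blue), and Nr0b1 is the only factor with the KO ESC point (92.6) below the WT ESC point (121.5).

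The comparison of KO with WT cells asks whether loss of Cnot8 goes with more of these transcripts. In ESCs the differences were small. The log2 ratio of KO to WT was 0.22 (0.04 to 0.39) for Esrrb, 0.57 (0.26 to 0.89) for Nr5a2, 0.31 (0.11 to 0.52) for Tfcp2l1, 0.21 (0.01 to 0.41) for Tbx3 and -0.39 (-0.51 to -0.28) for Nr0b1. So 4 factors were higher and 1 was lower beyond counting error, but 39.3% of the 9277 genes compared were also higher and 19.4% lower by that rule. None of the 5 reached 2-fold in either direction, as 3.59% of genes did upwards and 1.46% downwards. The median log2 ratio of CPM + 1 over all genes was 0.13 in ESCs. With that median set to 0, only Nr5a2 (0.44, 0.14 to 0.77) stayed higher and Nr0b1 (-0.52, -0.63 to -0.40) lower. Esrrb (0.09, -0.08 to 0.27), Tfcp2l1 (0.19, -0.02 to 0.40) and Tbx3 (0.08, -0.12 to 0.29) were then within counting error, and the share of upward calls among all calls beyond counting error went from 66.9% to 48.6%. For the X-linked Nr0b1, the median over 300 X-linked genes was -0.03 against 0.13 over 8955 autosomal genes, and the part of that in its lower level was not tested.

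In EpiLCs the KO class held more of every factor. The log2 ratio was 1.68 (1.07 to 2.36) for Esrrb, 1.32 (0.25 to 2.66) for Nr5a2, 0.49 (0.20 to 0.80) for Nr0b1, 1.91 (1.09 to 2.87) for Tfcp2l1 and 2.28 (0.70 to 4.58) for Tbx3. These are 3.20-fold, 2.50-fold, 1.41-fold, 3.75-fold and 4.86-fold, and all 5 lay beyond counting error. Esrrb and Nr0b1 were the 2 factors that reached a mean of 5 CPM over the EpiLC classes, so all-gene counts bear on these alone. Of them Esrrb was at least 2-fold higher, as were 2.31% of 9385 genes, and neither was at least 2-fold lower, as 0.938% were. Among these genes 31.9% were higher and 18.7% lower beyond counting error. Setting the all-gene median of 0.07 (on log2 of CPM + 1) to 0 left Esrrb at 1.61 (1.00 to 2.29) and Nr0b1 at 0.42 (0.12 to 0.73). The share of upward calls among all genes beyond counting error then went from 63.1% to 49.1%. Feeder fibroblast markers (8 genes) summed to 11.9 CPM in WT and 41.5 in KO ESCs, but to 4.66 and 5.85 in EpiLCs, with Col3a1, Postn and Lum at 0 in WT EpiLCs. Primitive endoderm markers (7 genes) summed to 21.8 and 37.0 CPM in ESCs and to 4.50 and 5.41 in EpiLCs, with Sox7 and Pdgfra at 0 in WT EpiLCs. Without the cells that carried several of these or of the 2-cell-like markers, the EpiLC ratios were 1.68 for Esrrb, 1.33 for Nr5a2, 0.49 for Nr0b1, 1.91 for Tfcp2l1 and 2.29 for Tbx3.

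Put as the percentage of the ESC level still present in EpiLCs, Esrrb was at 7.26% (4.48 to 11.2) in the WT class and 20.0% (18.4 to 21.8) in the KO class. Nr0b1 was at 13.0% (10.4 to 16.0) and 24.0% (22.5 to 25.5), and Tfcp2l1 at 5.50% (2.80 to 9.80) and 16.6% (14.9 to 18.5). Tbx3 was at 1.33% (0.271 to 3.92) and 5.58% (4.66 to 6.63). For these 4 the percentages did not overlap between classes. Nr5a2 was at 7.45% (2.91 to 16.0) and 12.6% (10.6 to 14.8), which overlapped. With wider line markers, which place more cells, the log2 stage changes of Nr5a2 were -4.40 (-5.26 to -3.66) in WT and -2.92 (-3.17 to -2.68) in KO and no longer overlapped. The retained fraction in KO over that in WT was 2.76-fold (1.78 to 4.29) for Esrrb, 1.69-fold (0.769 to 3.70) for Nr5a2, 1.85-fold (1.48 to 2.30) for Nr0b1, 3.02-fold (1.68 to 5.46) for Tfcp2l1 and 4.21-fold (1.33 to 13.3) for Tbx3, by a normal approximation on log counts. Thus 4 of 5 factors had an interval above 1, against 15% of 9377 genes. Among the 262 genes that were at least 2-fold lower in EpiLCs in both classes, 111 (42.4%) had such an interval and 19 had one below 1. The median log2 difference of change was 0.38 for those 262 genes, 1.47 for the 5 factors and -0.04 for all genes.

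The 10 other naïve factors did not all share this pattern. Klf2, a Krüppel-like factor of the same network, kept 9.37% (8.16 to 10.7) of its ESC level in the WT class and 20.2% (19.6 to 20.8) in the KO class, which was 2.15-fold (1.87 to 2.47) more. Klf5 and Zfp42 (Rex1) showed smaller differences of 1.30-fold each (1.09 to 1.55 and 1.14 to 1.50). Tcl1 kept 2.53-fold (1.09 to 5.91) more in KO, on 6 UMIs in WT EpiLCs. Dppa3, a germline and naïve marker, was higher in EpiLCs than in ESCs, at 133% in WT and 376% in KO of its ESC level. Nanog, the homeodomain factor, kept 32.5% in WT and 30.7% in KO, with a ratio of 0.943 (0.782 to 1.14), and Klf4 kept 5.52% and 5.37%, with a ratio of 0.974 (0.721 to 1.32). Gbx2 kept less in KO (0.727, 0.574 to 0.921), and Tfap2c was at 1.11 (0.736 to 1.69). Prdm14 had 0 UMIs in WT EpiLCs. Of the 10, 9 reached 5 CPM between stages and 7 were at least 2-fold lower in EpiLCs in each class, against 4.65% (WT) and 4.03% (KO) of all genes. In the EpiLC comparison of lines, 3 of 8 that reached 5 CPM were at least 2-fold higher in KO and 0 at least 2-fold lower. Of all genes, 2.31% were higher and 0.938% lower by that rule.

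**Figure D2:**
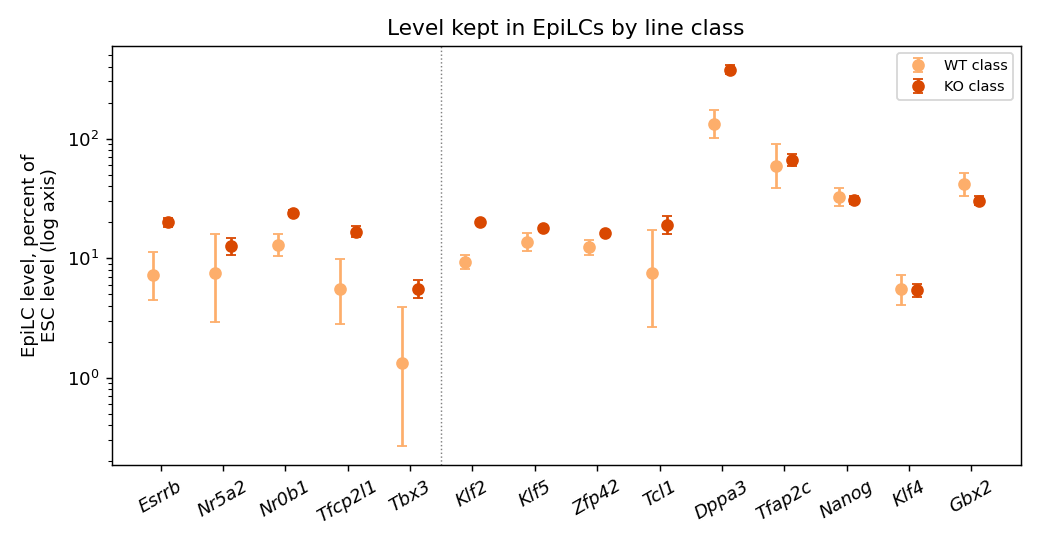
EpiLC level as a percentage of the ESC level (log axis) in the WT and KO classes, with exact 95% intervals, for the 5 factors (left of the dotted line) and 9 other naïve factors (right). The KO point lies above the WT point for all 5 factors (20.0% against 7.26% for Esrrb), though the intervals of Nr5a2 overlap. Those of Nanog, Klf4, Tcl1 and Tfap2c overlap as well, and Dppa3 lies above 100%.

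The core factors and formative genes give the setting of these values. Pou5f1 (Oct4) was at 99.8 CPM in WT and 75.5 in KO ESCs and at 109.3 and 82.4 in EpiLCs, a small difference between stages. Sox2, its partner, was lower in EpiLCs, at 269.4 and 95.02 CPM in the WT class and 237.3 and 128.5 in the KO class. It kept 35.3% (32.1 to 38.8) of its ESC level in WT and 54.2% (52.6 to 55.8) in KO, 1.54-fold (1.39 to 1.69) more, the same direction as the 5 factors. Sall4 kept 57.0% and 47.4%, less in KO (0.831, 0.743 to 0.9299), and Utf1 117% and 121%. Of the 8 formative genes, 5 in the WT class and 4 in the KO class were at least 2-fold higher in EpiLCs, against 4.76% and 2.52% of all genes, and none was at least 2-fold lower. Fgf5, the secreted marker of formative cells, went from 2.76 to 53.4 CPM in the WT class and from 1.29 to 35.9 in the KO class. Its log2 ratio of KO to WT in EpiLCs was -0.57 (-0.74 to -0.40), and 6 of the 8 formative genes were lower in KO EpiLCs beyond counting error, against 18.7% of all genes. Dnmt3a (0.70, 0.61 to 0.78) and Grhl2 (0.56, 0.32 to 0.81) were higher. In ESCs, 4 of the 8 were already lower in KO and 3 higher, against 19.4% and 39.3% of genes (Fgf5 was below 5 CPM there). EpiLC over ESC level was higher in KO for Otx2 (1.37-fold, 1.09 to 1.73), Lef1 (1.385-fold, 1.20 to 1.59), Dnmt3a (1.27-fold) and Grhl2 (1.50-fold). It was lower for Pou3f1 (0.758-fold, 0.680 to 0.845) and Dnmt3b (0.735-fold, 0.688 to 0.786). Fgf5 (1.44-fold, 0.826 to 2.50) and Zic2 (0.873-fold, 0.654 to 1.17) were within counting error.

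Among 12 genes known to act upstream of the factors, 5 were at least 2-fold lower in EpiLCs in each class and none was at least 2-fold higher. Of all genes, 4.65% (WT) and 4.03% (KO) were lower and 4.76% and 2.52% higher by that rule. Stat3, the LIF effector that induces Tfcp2l1, was at 43.4 CPM in WT and 55.0 in KO ESCs, and at 6.43 and 9.26 in EpiLCs, a KO over WT retention of 1.14-fold (0.804 to 1.60). Socs3, its feedback inhibitor, was at 1.53-fold (0.996 to 2.35) and Il6st, the gp130 coreceptor, at 0.972-fold (0.583 to 1.62). Lifr, the LIF receptor, kept 17.9% of its ESC level in WT and 30.8% in KO, a ratio of 1.73-fold (1.14 to 2.62). Ncoa3, a coactivator of Esrrb, kept 28.0% and 43.1% (1.54-fold, 1.29 to 1.84). Tcf7l1, the repressor of Esrrb and other naïve genes, was lower in KO by -0.68 on the log2 scale at both stages, with intervals of -0.85 to -0.52 in ESCs and -0.84 to -0.51 in EpiLCs. Axin2, a Wnt target and feedback gene, was 23.8 CPM in KO ESCs and 5.04 in WT ESCs. It was the only one of the 12 that was at least 2-fold apart between lines in ESCs, as 3.59% of genes were upwards and 1.46% downwards. In EpiLCs it was at 11.6 and 8.68 CPM.

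The genes whose profile over the 4 classes was nearest to each factor were found by Euclidean distance of the centred log2(CPM + 1) values, over 6375 genes of at least 20 CPM in some class. The 4 classes share libraries, so this is a description. For Esrrb they were Klf2 (distance 0.108), Cobl, Anxa1, Nid1 and Ahnak, and for Tfcp2l1 Anxa1 (0.181), Cobl, Klf2, Sept1 and Nid1. Those of Nr5a2 were Bmp4 (0.211), Nid1, Klf5, Ahnak and Bcl3, and those of Nr0b1 were Socs3 (0.238), Pdgfc, Vegfc, Urah and Fzd5. Tbx3 had its nearest neighbour farther off, Mylpf at 0.615, then Jam2, Khdc3, Mras and S100a6 (1.18). Its WT EpiLC value rests on 3 UMIs, so all distances from Tbx3 are uncertain. Few UMIs also lie behind the WT EpiLC values of Tfcp2l1 (12 UMIs), Nr5a2 (7 UMIs) and Anxa1 (0.482 CPM, as for Tbx3). Distances that involve these genes are uncertain too. Klf2 ran from 399.7 CPM in WT and 461.9 in KO ESCs to 37.5 and 93.1 in EpiLCs. Between the factors, Esrrb and Tfcp2l1 were closest to each other (0.204, rank 3 of 6379 genes from either side) and Nr0b1 and Tbx3 were farthest apart (1.85).

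Detection in single cells was compared after each cell had been thinned at random to 5000 UMIs. In ESCs, Esrrb was detected in 21.9% (18.1 to 26.1) of 434 WT cells and 23.9% (22.4 to 25.5) of 2955 KO cells. Nr0b1 was detected in 41.7% (37.0 to 46.5) and 33.9% (32.2 to 35.7), Tfcp2l1 in 15.2% (12.0 to 18.9) and 20.1% (18.7 to 21.6), Nr5a2 in 8.07% (5.68 to 11.04) and 10.7% (9.60 to 11.9), and Tbx3 in 15.9% (12.6 to 19.7) and 17.2% (15.8 to 18.6). Only for Nr0b1 did the ESC intervals not overlap, with the KO class lower.

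In EpiLCs, Esrrb was detected in 2.18% (0.946 to 4.25) of 367 WT cells and 5.83% (5.01 to 6.73) of 2968 KO cells, which did not overlap. Nr0b1 was in 6.27% (4.01 to 9.26) and 10.1% (9.05 to 11.3), Tfcp2l1 in 1.91% (0.770 to 3.89) and 3.57% (2.93 to 4.30), and Nr5a2 in 0.272% (0.00690 to 1.51) and 1.58% (1.17 to 2.10), all with overlap. Tbx3 was in 0 of 367 WT cells, which allows a share of cells with a UMI of up to 0.817% by a limit of 3 counts and 1% by the exact interval, and in 1.08% (0.739 to 1.52) of KO cells. Without thinning, Esrrb was in 44.6% of WT and 52.9% of KO ESCs and in 5.71% and 17.97% of EpiLCs, and Nr0b1 in 70.1%, 62.5%, 17.1% and 27.6%. Tfcp2l1 was then in 34.7%, 43.4%, 3.26% and 12.4%, Nr5a2 in 17.9%, 25.9%, 1.90% and 4.97%, and Tbx3 in 28.7%, 34.2%, 0.815% and 3.90% of these 4 classes. These shares also follow depth, which differed between classes.

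Free RNA can put UMIs into cells that do not express a gene. In the ESC library, 120 cells carried at least 3 of 8 feeder fibroblast markers and at most 5 Dppa5a UMIs (median depth 11070 UMIs). In them Esrrb was detected without thinning in 7.50% (3.49 to 13.8), Nr5a2 in 0.833% (0.0211 to 4.56), Nr0b1 in 7.50% (3.49 to 13.8), Tfcp2l1 in 5.00% (1.86 to 10.6) and Tbx3 in 18.3% (11.9 to 26.4). The ESC classes were above these shares in value for all 5 factors, with Tbx3 in WT ESCs (28.7%) the nearest. Their median depth was also higher, at 13150 UMIs in WT and 13370 in KO ESCs, so the shares are not at equal depth. No such background could be measured in the EpiLC library, where 0 cells of either class carried 3 feeder markers. The feeder-cell shares therefore set no background for the EpiLC classes, and how much free RNA adds to the EpiLC values was not tested. Tbx3 in the feeder-gated cells was at 18.1 CPM, against 39.4 in ESCs past no marker gate, and Esrrb at 7.25 against 54.7. In the same comparison Nr0b1 was at 6.525 against 107.1, Tfcp2l1 at 4.35 against 39.1 and Nr5a2 at 0.725 against 19.7. Pou5f1 was at 9.425 against 82.5 and Nanog at 4.35 against 70.4. Tbx3 thus stood out, and its share there may not measure free RNA alone. Whether feeder cells transcribe Tbx3 themselves was not tested.

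**Figure D3:**
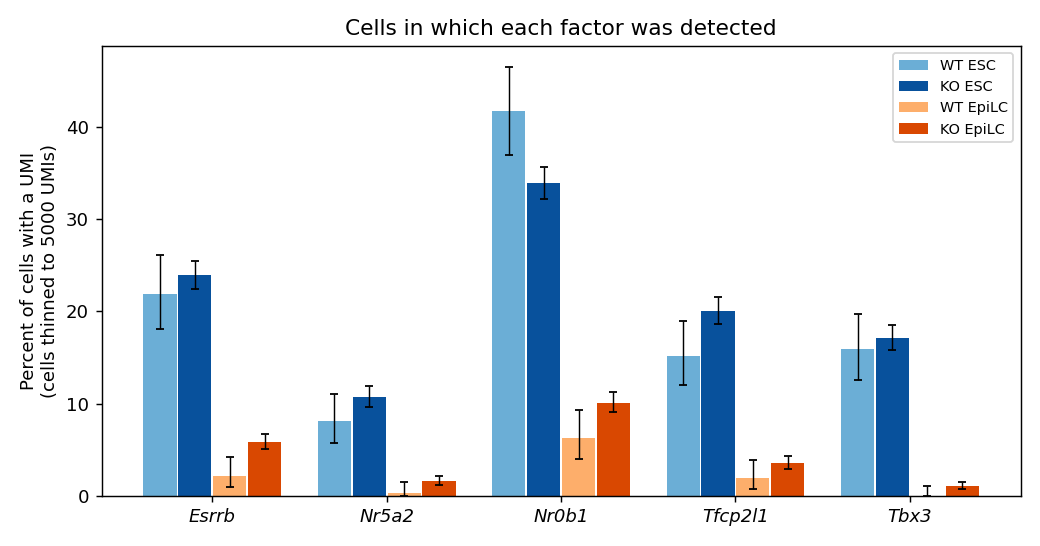
Percentage of cells with at least 1 UMI of each factor after thinning to 5000 UMIs, in the 4 classes, with exact binomial 95% intervals. The EpiLC bars are at or below 10.1%, and the KO EpiLC bar is taller than the WT EpiLC bar for each factor.

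Primitive endoderm cells use Tbx3 as well, and Tbx3 followed their markers. In 172 ESCs with at least 3 of 7 primitive endoderm markers, Tbx3 was at 195.6 CPM (178.3 to 214.0), against 39.4 (38.4 to 40.5) in the 10639 ESCs with none of the marker gates. In the same cells Tfcp2l1 was at 49.3 (40.8 to 59.0) against 39.1, Esrrb at 40.6 (33.0 to 49.5) against 54.7, Nr0b1 at 52.6 (43.9 to 62.6) against 107.1 and Nr5a2 at 6.22 (3.48 to 10.3) against 19.7. Tbx3 was thus several-fold higher there and Tfcp2l1 slightly higher, while Esrrb, Nr0b1 and Nr5a2 were lower, all with no overlap of the intervals. The gates were set after the data had been seen. The KO ESC class held 69 of these cells and the WT ESC class 4. Without all cells past a marker gate, the ESC ratio of Tbx3 was 0.15 (-0.06 to 0.36) on the log2 scale, no longer beyond counting error.

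Among KO ESCs, Tbx3 was the most unevenly spread of the 5 factors. After thinning, the variance of its UMIs was 1.46 times the mean, against 1.08 for Esrrb, 1.07 for Nr5a2, 1.20 for Nr0b1 and 1.03 for Tfcp2l1, where 1 is the value of an even spread. It was detected in 17.2% of cells where an even spread of the same mean gives 20.5%. Without the marker-gated cells the ratio of variance to mean was 1.40. In WT ESCs at this depth the ratio was highest for Nr0b1, at 1.32, with Tbx3 at 1.17 and Tfcp2l1 at 1.18, so Tbx3 did not rank first there. At 10000 UMIs it was 1.77 for Tbx3 and 1.44 for Nr0b1 in KO ESCs, and 1.59 and 1.53 in WT ESCs. In KO EpiLCs at 5000 UMIs most means were too low to tell an even from an uneven spread. Nr0b1, the most abundantly counted there, was in 10.1% of cells against 11.2% for an even spread, and 28.6% of its UMIs lay in the 48 cells with at least 2.

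Co-detection of the factors in single cells stayed near what their separate shares give in ESCs. Of 2955 KO ESCs, 949 had none of the 5 factors, 1137 had 1, 647 had 2, 196 had 3, 23 had 4 and 3 had all 5. Independent detection at the observed shares gives 878.2, 1235, 656.1, 165.2, 19.7 and 0.884 cells, so cells with none and with 3 were somewhat more numerous than that. At least 2 factors were found in 29.4% (27.8 to 31.1) of KO ESCs and 28.3% (24.2 to 32.8) of WT ESCs, against 28.5% and 26.8% for independence. In EpiLCs at least 2 were found in 2.22% (1.72 to 2.82) of KO cells and 0.545% (0.0661 to 1.96) of WT cells, against 1.59% and 0.319%. The KO EpiLC share thus lay above independence beyond counting error, on 66 cells against 47.1. A depth of 10000 UMIs was added after seeing the data. There 6.06% (5.21 to 6.996) of KO EpiLCs held at least 2, against 5.16% for independence (173 cells against 147.3). In WT EpiLCs the share was 3.23% (1.621 to 5.698) against 0.911% (11 cells against 3.11). At that depth both shares lay above independence beyond counting error, so the excess was not confined to the KO class. At 5000 UMIs, KO EpiLCs with 1 factor made up most of those with any (523 of 589), where independence gives 562.2 of 609.3. This split follows largely from the low detection shares at this depth. It does not show how many cells express several factors.

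**Figure D4:**
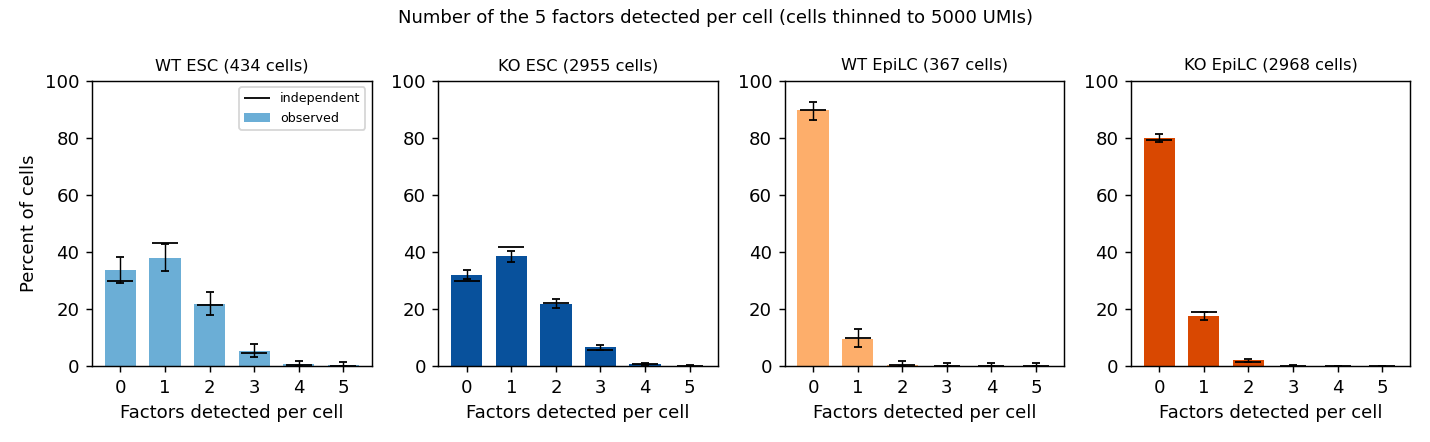
Percentage of cells by number of factors detected after thinning to 5000 UMIs, in the 4 classes, with exact binomial 95% intervals, and black dashes at the percentage that independent detection gives. Bars for 1 factor lie below the dashes in the ESC classes (38.5% against 41.8% in KO ESCs), and 80.2% of KO EpiLCs and 89.9% of WT EpiLCs had none of the 5.

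Over the 10 pairs in KO ESCs, the number of cells with both factors was 0.977 (Nr0b1 and Tbx3) to 1.26 (Tfcp2l1 and Tbx3) times the product of the shares. The interval lay above 1 for Tfcp2l1 with Tbx3 (1.05 to 1.49) and for Esrrb with Tbx3 (1.21, 1.03 to 1.42). At 10000 UMIs these were 1.11 (0.982 to 1.26) and 1.09 (0.969 to 1.21). At 5000 UMIs without the marker-gated cells they were 1.215 (1.003 to 1.457) and 1.233 (1.039 to 1.452). How often pairs of other genes reach such an interval was not tested. In KO EpiLCs, Tfcp2l1 was found with Nr0b1 in 19 cells, against 10.7 by the shares (1.77, 1.07 to 2.76), and in 50 against 35.0 at 10000 UMIs (1.43, 1.06 to 1.88). With Esrrb it was found in 12 cells against 6.18 (1.94, 1.00 to 3.39), but in 21 against 20.97 at 10000 UMIs. Nr5a2 with Nr0b1 went from 2 cells against 4.75 at 5000 UMIs to 26 against 15.8 at 10000 UMIs. In WT ESCs, Esrrb with Tbx3 was found in 24 cells against 15.1 (1.59, 1.03 to 2.33), and in 38 against 32.5 at 10000 UMIs (1.17, 0.839 to 1.58). These are sparse counts, and correlations of detection between pairs (phi) in KO ESCs ran from -0.01 to 0.06.

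Cells with any of the 5 factors also held more of other naïve factors, in both ESC classes and in KO EpiLCs. In KO EpiLCs, 589 thinned cells with at least 1 factor were set against 2379 with none. Nanog was at 26.5 CPM with and 14.7 without (log2 ratio 0.85, 0.44 to 1.24). Klf5 was at 57.1 and 32.9 (0.80, 0.53 to 1.06), Zfp42 at 153.5 and 92.8 (0.73, 0.56 to 0.88) and Klf2 at 121.6 and 88.9 (0.45, 0.28 to 0.63). Of the 7 other naïve factors that reached 5 CPM, these 4 were higher beyond counting error, against 5.39% of 9442 genes. Dppa3, which was itself higher in KO EpiLCs, did not follow, at 46.9 CPM with and 52.4 without (-0.16, -0.44 to 0.11). Of the 8 formative genes 3 were lower, against 3.48% of genes. They were Fgf5 at 22.1 against 33.7 CPM (-0.61, -1.01 to -0.23), Dnmt3b at 422.4 against 492.1 (-0.22, -0.31 to -0.13) and Pou3f1 at 349.1 against 384.4 (-0.14, -0.24 to -0.04). Grhl2 was higher (0.40, 0.10 to 0.69). In KO ESCs (2006 cells with and 949 without), Nanog, Klf2, Klf4, Klf5 and Zfp42 were higher, 5 of the 9 that reached 5 CPM, against 5.17% of 9399 genes, with Nanog the largest (0.59, 0.36 to 0.82). Lower there were Pou3f1 (-0.31, -0.49 to -0.13) and Lef1 (-0.30, -0.57 to -0.04), 2 of 7 formative genes, against 5.47% of genes. Zic2 was higher (0.71, 0.10 to 1.36). In WT ESCs (288 cells with and 146 without) the same 5 naïve factors were higher, against 2.83% of 9089 genes, with Klf4 (0.91, 0.55 to 1.28) and Nanog (0.82, 0.31 to 1.36) the largest. In WT EpiLCs, with 37 cells that held a factor, none of the 10 differed beyond counting error. Cells of 1 library are not replicates, and this is a description of these cells.

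**Figure D5:**
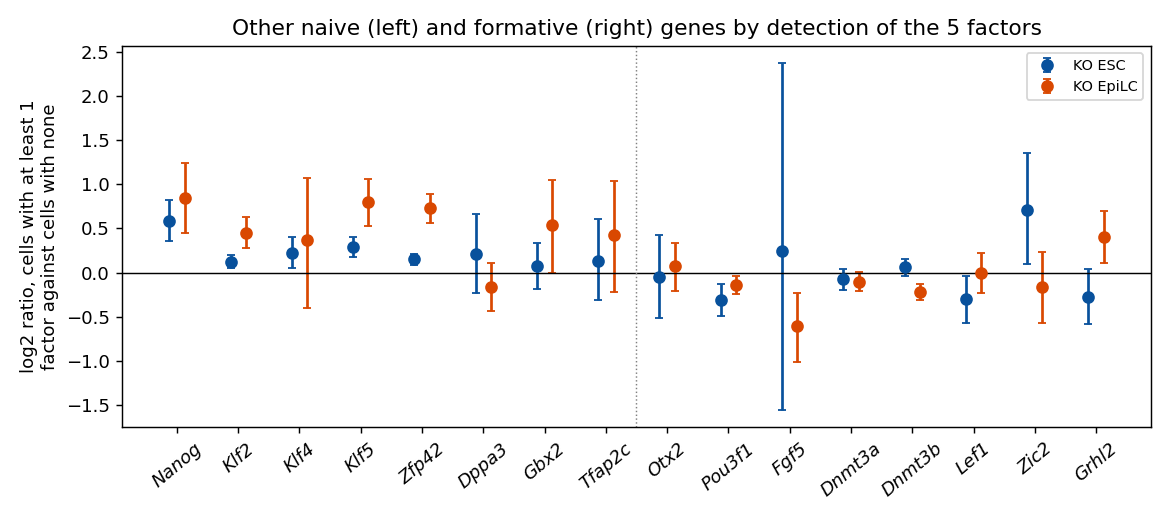
Log2 ratio of CPM between KO cells with at least 1 of the 5 factors and KO cells with none, after thinning to 5000 UMIs, for other naïve factors (left of the dotted line) and formative genes (right), with exact 95% intervals. In EpiLCs the points of Nanog (0.85), Klf5 (0.80) and Zfp42 (0.73) stand highest, and Fgf5 (-0.61) lowest.

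The genes with the highest ratio between KO ESCs with and without a factor depended on the thinning draw, less so for Tbx3 than for Esrrb and Nr0b1. For Tbx3 they were Fbp2 (70.6 CPM with Tbx3 and 23.0 without), Calcoco2 (209.9 and 90.4), Ly6a, Fbxo15 and Ak4, and 3 of these 5 came up again in another thinning draw. For Esrrb (Gm17251, Akap9, Kank3, Emilin1, Zfc3h1) 1 of 5 did, and for Nr0b1 (Zp3, Bmp4, Adam23, Vps11, Scaf4) 0 did. Among 5720 genes ranked in this way, Tbx3 was at rank 21 in cells with Tfcp2l1 (0.48, 0.23 to 0.74), and Tfcp2l1 at rank 74 (0.46, 0.20 to 0.73) and Esrrb at rank 105 (0.42, 0.19 to 0.67) in cells with Tbx3. Nr0b1 was at rank 4333 in cells with Tbx3, but at rank 144 (0.28, 0.11 to 0.46) in cells with Esrrb. Esrrb was at rank 97 (0.26, 0.06 to 0.47) in cells with Nr0b1, and at rank 1064 (0.13, -0.12 to 0.37) in cells with Tfcp2l1. The marker-gated cells, in which Tbx3 and Tfcp2l1 were higher past the primitive endoderm gate, were kept in these ranks.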

How the data were processed

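The authors deposited raw UMI counts (1 count per distinct molecule tag) for each feature in each barcode. The submitters' processing notes name Cell Ranger 3.0.2, mm10 and Seurat 4, and the tdTomato coding sequence had been added to the reference. Barcodes entered with at least 1000 genes detected and a mitochondrial share of up to 10%. No doublet caller was run. Classes were formed from tdTomato and 4 Y-linked genes, UMIs were summed per class and scaled to CPM, and each ratio has an exact interval from the binomial split of its pooled UMIs. Levels carry exact Poisson and shares exact (Clopper-Pearson) intervals. Thinning drew 5000 UMIs per cell without replacement, leaving out 1 to 23 shallower cells per class. Genes called 2-fold had a log2 ratio of CPM + 1 of at least 1 in size and a mean of at least 5 CPM. Named genes were the 5 factors, fixed lists, and the 5 genes most like each factor by profile and by cells. The genes most like Nr5a2 and Tfcp2l1 by cells are not reported here. These members, lists and measures were chosen with earlier results of these data known. Ratio, call and thinning steps were tested on simulated data. Python 3.11.15, numpy 2.4.6, scipy 1.17.1 and pandas 2.3.3 were used.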

Additional observations from a re-analysis of the deposited data

Results flagged for a closer look

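Several genes differed between the lines in opposite directions at the 2 stages, and the difference itself was not tested, because there is 1 library per stage. Nr0b1 had a log2 ratio of KO to WT of -0.39 in ESCs and 0.49 in EpiLCs, the only 1 of the 5 factors to do so. Dppa3 was at -0.34 in ESCs and 1.17 in EpiLCs, and Sox2 at -0.18 and 0.44. The formative genes Pou3f1 (0.21 and -0.19) and Dnmt3b (0.23 and -0.21) went the other way. Axin2 changed between stages by 0.79 on the log2 scale in the WT class and by -1.03 in the KO class.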

How the results depend on the processing

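Across 220 values under alternative settings, 204 moved by less than their interval (or by under 1.5 times for counts of genes), 16 moved more and 0 changed sign against a called value. Some of the 204 could not move. Asking the KO class for at least 1 Y-linked UMI leaves the WT classes at 435 ESCs and 368 EpiLCs. Each median over the factors also repeats the value of a single factor. Without a filter on low values the genes at least 2-fold apart went from 333 to 714 higher and 135 to 213 lower in KO ESCs, from 217 to 456 higher and 88 to 164 lower in KO EpiLCs, and from 430 to 776 (WT) and 382 to 679 (KO) lower in EpiLCs than ESCs, since more genes enter. The share of cells with at least 2 factors follows depth by construction. It was 13.1% of WT and 14.2% of KO ESCs and 0.673% of KO EpiLCs at 3000 UMIs, and 54.1%, 57.2%, 3.23% (WT EpiLCs) and 6.06% at 10000 UMIs, a depth chosen after seeing the data. Wider line markers, known to separate the lines from earlier results, gave 1342 WT and 3583 KO ESCs and 1226 WT and 3142 KO EpiLCs. With them the EpiLC ratio of Nr0b1 was 0.91 instead of 0.49 and its WT stage change -3.39 instead of -2.95, and the cause was not tested. The EpiLC ratio of Nr5a2 went from 1.32 to 2.09, within its interval. The medians over the 5 factors were 1.76 (EpiLC lines), 0.19 (ESC lines), -3.89 (WT stages) and -2.53 (KO stages) with these markers. Setting the all-gene median to 0 also moved the ESC ratio of Nr0b1 to -0.52. No paired analysis was possible because each stage has 1 library. The limits are few UMIs of Nr5a2, Tfcp2l1 and Tbx3 in WT EpiLCs (7, 12 and 3), the single library per stage, and the 7641 ESCs and 6055 EpiLCs outside both classes.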

Other observations

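Close relatives of the factors were mostly rare or unlike them between stages. Esrra, the ubiquitous estrogen-related receptor, was at 10.2 CPM in WT and 15.5 in KO ESCs and at 16.4 and 19.2 in EpiLCs, so it was higher at the stage at which Esrrb was lower. Esrrg had 0 UMIs in all 4 classes, and Nr5a1 had 1, 1, 0 and 5 UMIs in WT ESCs, KO ESCs, WT EpiLCs and KO EpiLCs. Ubp1, a relative of Tfcp2l1, was at 55.1, 48.6, 48.1 and 42.4 CPM in the same order, and Tfcp2 at 2.93, 4.47, 5.47 and 5.46. Tbx2, the nearest relative of Tbx3, had 0, 6, 0 and 10 UMIs.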
